A study of Homo sapiens with 6 samples.

Results

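MicroRNA host genes are genes whose transcripts carry microRNA hairpins, and the members described here are the rows of the deposited gene table whose symbol is MIR, then digits and capital letters without a hyphen, then HG. There were 74 such rows among the 61806 genes of the table. RNA-seq had been performed on HCT116, a human colorectal carcinoma line, after transfection with a control short interfering RNA (si-NC, genotype labelled wildtype, 3 libraries) or with one against STRIP2 (si-STRIP2, labelled STRIP2 knockdown, 3 libraries). All libraries came from this 1 cell line, poly(A) RNA was selected, and the dose, the time and the sequence of the interfering RNAs are not given in the sources used here. The question was which host transcripts stood higher or lower once STRIP2 had been targeted.

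A microRNA is first transcribed as part of a longer primary transcript by RNA polymerase II. The nuclear Microprocessor, made of DROSHA and DGCR8, cuts the hairpin out, exportin 5 carries it to the cytoplasm, and DICER1 trims it to a duplex from which an Argonaute protein keeps a guide strand. The bases near the 5′ end of the guide, its seed, pair with target messages. Poly(A) libraries count host transcripts, spliced or not, and do not measure mature microRNAs, so every value below is a level of a host RNA or of its hairpin region.

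The seeds show which microRNA families the hosts encode, and neither mature microRNAs nor their targets were measured here. Mature sequences came from RefSeq (GRCh38.p14) and matched 39 of the 41 microRNA genes that lie on the same strand inside 23 of the 24 host genes that could be tested. By the positions of the table, MIR30DHG, the other tested host, and 2 untested hosts, MIR670HG and MIR7515HG, held no microRNA gene on their own strand, so 71 of the 74 did. They gave 70 mature sequences, printed sequences being RNA, 5′ to 3′, with the seed (bases 2 to 8) in capitals. The first set is from the 3 hosts whose level fell and that carry well-studied microRNAs (MIR22HG, MIR503HG and MIR200CHG).
miR-22-3p: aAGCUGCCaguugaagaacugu
miR-503-5p: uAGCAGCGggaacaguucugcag
miR-200c-3p: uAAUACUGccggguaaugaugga
miR-141-3p: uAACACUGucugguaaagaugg
The seeds of miR-200c-3p and miR-141-3p differ, although both microRNAs come from MIR200CHG.

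The second set is from the better-studied hosts whose level rose by edgeR: MIR17HG with its 6 hairpins, MIR222HG, MIR210HG and MIR34AHG. Of these, only MIR210HG stayed past the threshold in every alternative fit described below.
miR-17-5p: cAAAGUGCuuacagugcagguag
miR-20a-5p: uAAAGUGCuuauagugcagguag
miR-18a-5p: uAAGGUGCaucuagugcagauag
miR-19a-3p: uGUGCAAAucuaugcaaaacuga
miR-19b-3p: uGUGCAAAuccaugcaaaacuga
miR-92a-3p: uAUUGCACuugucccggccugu
miR-221-3p: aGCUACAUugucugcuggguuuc
miR-222-3p: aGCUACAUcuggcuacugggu
miR-210-3p: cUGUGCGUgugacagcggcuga
miR-34a-5p: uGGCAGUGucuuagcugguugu
Within MIR17HG, miR-17-5p and miR-20a-5p shared the seed AAAGUGC, and miR-19a-3p and miR-19b-3p shared GUGCAAA. The pair from MIR222HG shared GCUACAU.

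The third set is the let-7 family, the only family here whose seed, GAGGUAG, was found in more than 1 host on the 5p arm. It lay in 4 tested hosts (MIR100HG, MIRLET7A1HG, MIRLET7BHG and MIRLET7IHG), none of which was called.
let-7a-5p: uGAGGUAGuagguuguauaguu
let-7b-5p: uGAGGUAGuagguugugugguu
let-7d-5p: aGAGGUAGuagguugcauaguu
let-7f-5p: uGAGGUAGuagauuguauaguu
let-7i-5p: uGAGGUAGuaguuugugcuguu
The same let-7a-5p is encoded by 3 hairpins, 1 in each of MIR100HG, MIRLET7A1HG and MIRLET7BHG.

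The libraries held between 17184963 and 21721218 counts. STRIP2 itself had FPKM values (fragments scaled by exon length and library total) of 3.19, 3.77 and 3.81 in si-NC and 2.71, 2.53 and 2.58 in si-STRIP2, so 72.8% of the control level remained by the fit described next (edgeR adjusted p = 1.62e-05). All 7 epithelial markers were detected, with a summed FPKM of 769 to 798 in si-NC and 726 to 751 in si-STRIP2. The summed FPKM of markers of immune cells (5 genes), fibroblasts (5 genes) and endothelium (4 genes) stayed at or below 2.64 in every library, and COL1A2 was at 0. Of these 3 lists, only COL1A1 and KDR had enough counts to be tested, and 54.8% of all tested genes were called. COL1A1 was not called (log2 fold change -0.16). KDR, an endothelial receptor gene, was called, going from 0.343 ± 0.0379 to 0.160 ± 0.0265 FPKM (SD, n = 3), a log2 fold change of -1.07 (edgeR adjusted p = 0.000528). Whether the libraries of a group were separate cultures is not stated in the labels, so the p-values below measure the spread between these libraries, which may be technical.

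Most host genes were scarce. Of the 74, 23 had a mean count of at least 10 over the 6 libraries, 4 had a mean of at least 100, and 29 had no count in any library, where a count of 0 allows up to 3 counts. The edgeR filter kept 24, which are the 23 and MIR378D2HG at a mean count of 9.67. The remaining 21 had some counts but were not tested. The median mean count of the tested hosts was 38.0, against 347.5 over all 15687 tested genes, so their fold changes carry larger errors than those of most genes.

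MIR100HG, the primary transcript of let-7a-2, miR-100 and miR-125b-1, had more counts than all other members together. It held between 58.5% and 62.7% of all member counts in each library. On the FPKM scale, which corrects for length, MIR222HG was above it in every library, and MIR200CHG had a mean of 5.00 ± 0.954 in si-NC. All other members had a mean of at most 1.80 FPKM in si-NC. The summed counts of the 74 members ranged from 204 to 228 CPM (counts scaled to the library total) in si-NC and from 206 to 226 in si-STRIP2, and these ranges overlap.

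In the comparison of si-STRIP2 with si-NC, 11 of the 24 tested hosts (45.8%) passed edgeR's adjusted threshold of 0.05 (and are here "called"), 7 higher and 4 lower in si-STRIP2. Of all tested genes, 54.8% were called, 27.8% higher and 27.0% lower, so the share among the hosts lies near that of all tested genes. These shares are not matched for depth, since 20 of the 24 hosts had a mean count under 100. Among tested genes with a mean count under 100, 31.8% were called, beside 9 of the 20 hosts in that range. The called change reached 2-fold in 3 hosts, MIR22HG, MIR503HG and MIR210HG, where 4.47% of all tested genes and 10.9% of those under a mean count of 100 had one. DESeq2 called 7 of the 24, 3 higher and the same 4 lower, and every host it called was among the 11. Of all tested genes, DESeq2 called 46.1%.

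The median log2 fold change of the tested hosts was 0.17, and 15 of 24 were above 0, beside a median of 0.014 over all tested genes. Without si-NC replicate 3 the median was 0.28, and without si-NC replicate 2 it was 0.10. The median absolute log2 fold change was 0.41 for the hosts and 0.26 for all tested genes. These 2 values are not matched for depth, since the median mean count was 38.0 for the tested hosts and 347.5 for all tested genes. The groups did not overlap in CPM for 11 of 24 hosts, against 59.3% of all tested genes. Among genes named SNHG and a number, the hosts of small nucleolar RNAs, 18 of 22 tested were called, 10 higher and 8 lower. Of all tested genes, 54.8% were called. The SNHG genes were more abundant, with 5 of 22 under a mean count of 100, against 20 of the 24 microRNA hosts. The difference from the microRNA hosts was not tested. In 8 SNHG genes the called change reached 1.5-fold, beside 14.5% of all tested genes. SNHG9, SNHG19, SNHG4 and SNHG21 rose, and SNHG31, SNHG32, SNHG5 and SNHG8 fell, over log2 fold changes from -0.86 to 1.18. SNHG31, the lowest, is uncertain, since overlapping genes held 921% as many counts and its mean count was 30.5. Overlapping genes held 61.2% as many counts for SNHG4 and 36.5% for SNHG21. SNHG9, the highest, had a mean count of 14.3.

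**Figure D1:**
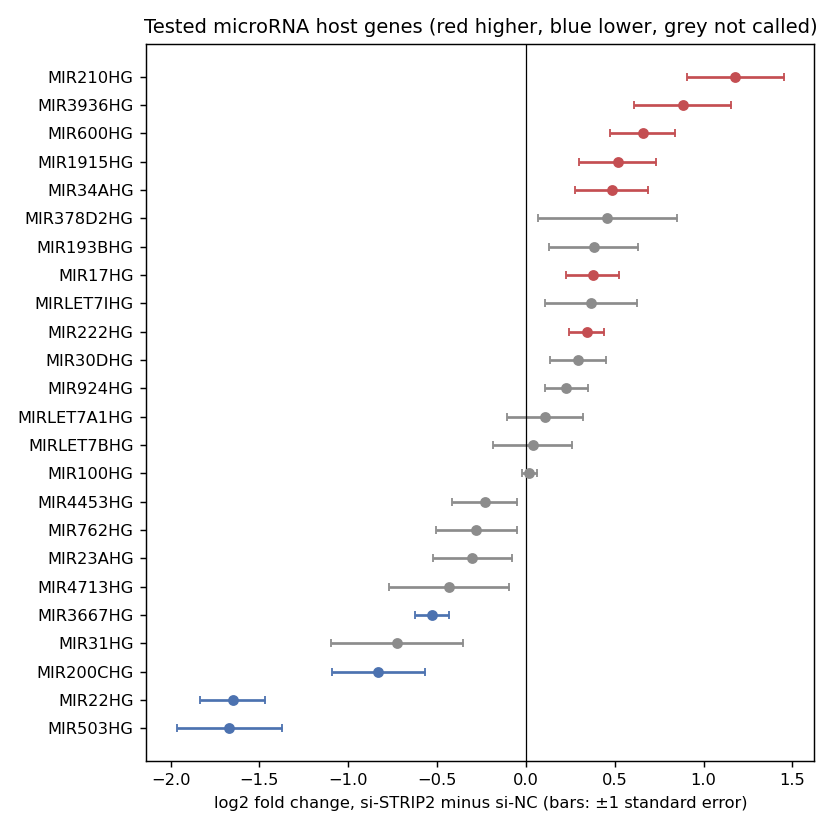
Log2 fold change (si-STRIP2 minus si-NC, horizontal axis) of the 24 tested microRNA host genes, with bars of 1 standard error from edgeR. Points in red were called higher (7), points in blue lower (4) and points in grey were not called (13), with MIR503HG and MIR22HG lowest and MIR210HG highest.

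MIR22HG and MIR503HG fell most. MIR22HG (ENSG00000186594, chromosome 17, 1711447 to 1717174, minus strand, as all gene positions from the deposited table) is the host of miR-22, which is widely expressed and was described as a tumour suppressor in several settings. Its FPKM was 1.54, 1.62 and 1.97 in si-NC and 0.57, 0.48 and 0.58 in si-STRIP2. The lowest control library was thus well above the highest si-STRIP2 library. The log2 fold change was -1.65 ± 0.18 (SE), a level of 31.9% of the control (edgeR adjusted p = 1.88e-09). WDR81 overlaps MIR22HG on the opposite strand and held 277% as many counts, and its own log2 fold change was 0.49. The strand setting of the counting is not given in the sources used here, so the value of MIR22HG is uncertain, and the part of WDR81 reads in it was not tested.

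MIR503HG (ENSG00000223749, chromosome X, 134543119 to 134546642, minus strand) carries miR-503, a microRNA of the extended miR-15/16 family that is known to target cell cycle genes. The table listed 42, 31 and 41 counts in si-NC and 14, 6 and 14 in si-STRIP2. As FPKM these were 0.64, 0.60 and 0.79 against 0.25, 0.11 and 0.27. No library of one group reached the range of the other. Its log2 fold change was -1.67 ± 0.30 (SE), a 3.18-fold lower level (edgeR adjusted p = 1.28e-05), and no other gene of the table held counts in its span. On the log2(FPKM + 1) scale, where a pseudocount of 1 is above the level of most hosts, limma gave -0.47 for MIR503HG and -0.81 for MIR22HG, both still called.

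MIR200CHG (ENSG00000257084, chromosome 12, 6963226 to 6964447, plus strand) is the host of miR-200c and miR-141, which maintain the epithelial state by repressing ZEB1 and ZEB2. It had 45, 25 and 35 counts in si-NC and 22, 16 and 18 in si-STRIP2. Its FPKM of 5.60, 3.90 and 5.50 in si-NC went to 3.17, 2.47 and 2.82, high for so few counts because its exons sum to 370 bases. The groups did not overlap, although si-NC replicate 2 came near the si-STRIP2 libraries. MIR200CHG fell by 0.83 ± 0.26 on the log2 scale (SE, edgeR adjusted p = 0.00745). Of the 7 epithelial markers, 5 were also called lower and 1 higher (median log2 fold change -0.12), beside 27.0% and 27.8% of all tested genes. CDH1, the gene of the adhesion protein E-cadherin, had the largest of these changes, a log2 fold change of -0.60 ± 0.040 (SE), and CLDN7, of tight junctions, was next among those that fell at -0.44. Their part in the fall of MIR200CHG was not tested.

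MIR3667HG (ENSG00000188511, chromosome 22, 49414524 to 49657542, minus strand), a long noncoding gene with miR-3667 in an intron, had the smallest standard error of the hosts that fell. Its FPKM was 1.77, 1.71 and 1.78 in si-NC and 1.26, 1.22 and 1.17 in si-STRIP2. The spread within a group was far smaller than the gap between groups. The log2 fold change was -0.53 ± 0.095 (SE), a level of 69.3% of the control (edgeR adjusted p = 1.57e-05). These 4 hosts were called lower by edgeR, DESeq2 and limma in each alternative in which they were tested.

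**Figure D2:**
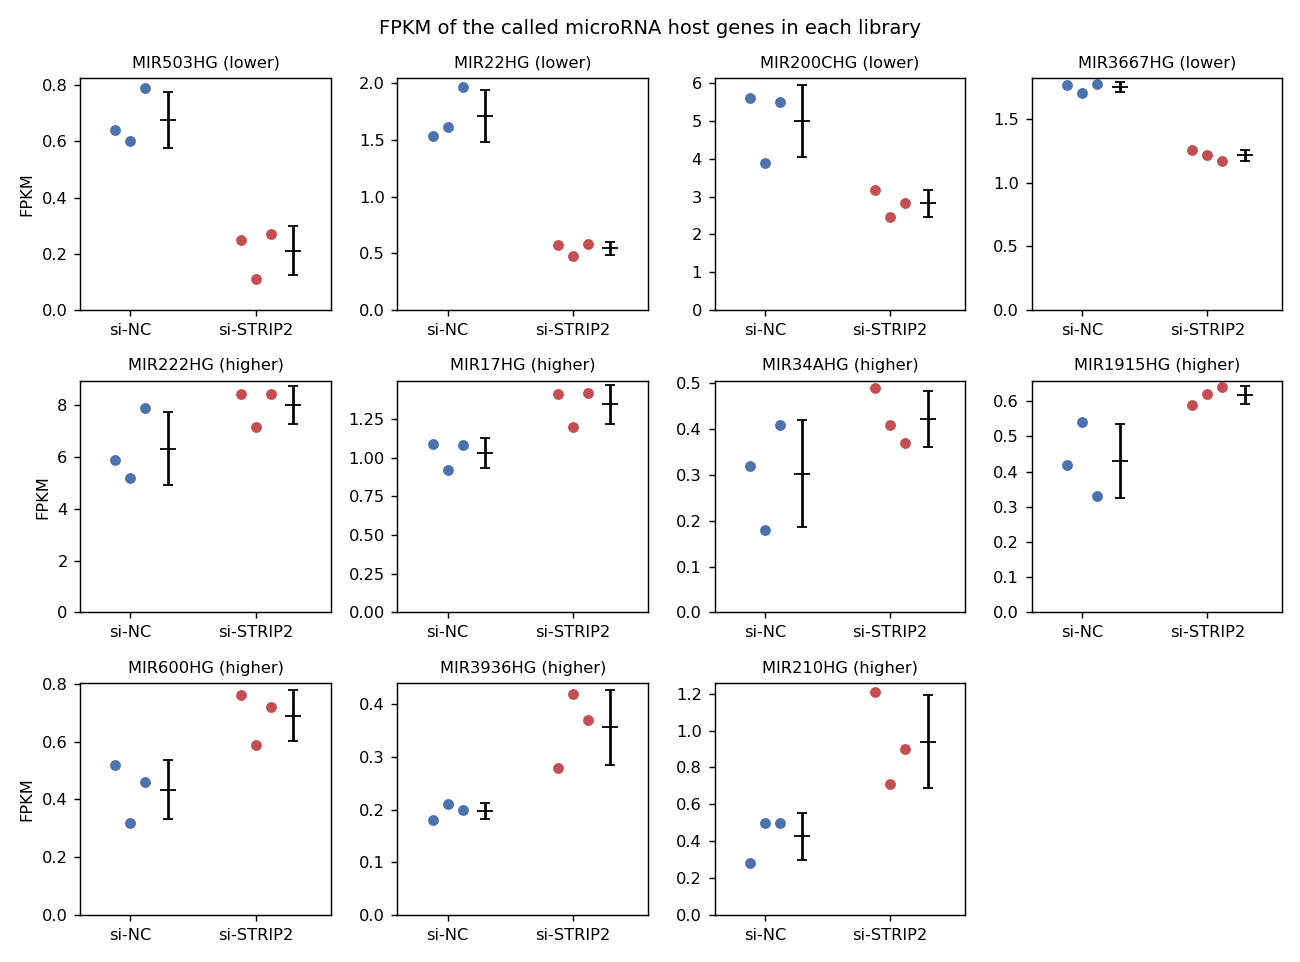
FPKM (vertical axes, each from 0) of the 11 called host genes in the 3 si-NC libraries (blue) and the 3 si-STRIP2 libraries (red), with the mean and SD of each group in black. The groups overlapped for MIR222HG and MIR34AHG and did not for the other 9.

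MIR210HG (ENSG00000247095, chromosome 11, 565657 to 568457, minus strand), the host of the hypoxia-induced miR-210, rose most. The table gave 14, 20 and 20 counts in si-NC and 53, 29 and 36 in si-STRIP2. In FPKM, the control libraries stood at 0.28, 0.50 and 0.50 and the si-STRIP2 libraries at 1.21, 0.71 and 0.90. Every si-STRIP2 library was above every control, with si-STRIP2 replicate 1 standing highest. The log2 fold change was 1.18 ± 0.27 (SE), a 2.27-fold higher level (edgeR adjusted p = 0.000439), and limma on log2(FPKM + 1) gave 0.44.

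The host of the miR-17-92 cluster, MIR17HG (ENSG00000215417, chromosome 13, 91347820 to 91354579, plus strand), is a MYC target gene and the source of 6 hairpins that favour proliferation. Its FPKM was 1.09, 0.92 and 1.08 in si-NC and 1.41, 1.20 and 1.42 in si-STRIP2. The groups did not overlap, but the gap between the nearest libraries was small. It rose by 0.38 ± 0.15 on the log2 scale (SE, edgeR adjusted p = 0.0328). The call was lost under DESeq2 (DESeq2 adjusted p = 0.109) and, in edgeR, without si-NC replicate 2 (0.141), si-STRIP2 replicate 1 (0.0910) or si-STRIP2 replicate 3 (0.108).

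MIR222HG (ENSG00000270069, chromosome X, 45745210 to 45770274, minus strand) carries miR-221 and miR-222, which repress the cell cycle inhibitor CDKN1B. It was the host with the highest FPKM, at 5.88, 5.20 and 7.90 in si-NC and 8.45, 7.16 and 8.43 in si-STRIP2. The groups overlapped, since si-NC replicate 3 was above si-STRIP2 replicate 2. The log2 fold change was 0.34 ± 0.099 (SE, edgeR adjusted p = 0.00377). It was 0.52 without si-NC replicate 3 and 0.22 without si-NC replicate 2. The call was lost under DESeq2 (DESeq2 adjusted p = 0.158), under limma on log2(FPKM + 1) (limma adjusted p = 0.0617) and under limma on log2(FPKM + 0.1).

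The hairpin of miR-221 inside this host had a row of its own with enough counts for a test. MIR221 (chromosome X, 45746157 to 45746266, 110 bases, intronic by GENCODE 29) had 22, 15 and 13 counts in si-NC and 32, 29 and 29 in si-STRIP2. These are 1.01, 0.867 and 0.756 CPM in si-NC and 1.70, 1.66 and 1.68 in si-STRIP2, so the groups did not overlap. Its log2 fold change was 0.91 ± 0.27 (SE, edgeR adjusted p = 0.00439). MIR222, the neighbouring hairpin, had 0, 2 and 2 counts in si-NC and 5, 2 and 2 in si-STRIP2 and was not tested. Whether the hairpin row and the host row differed in their change was not tested.

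**Figure D3:**
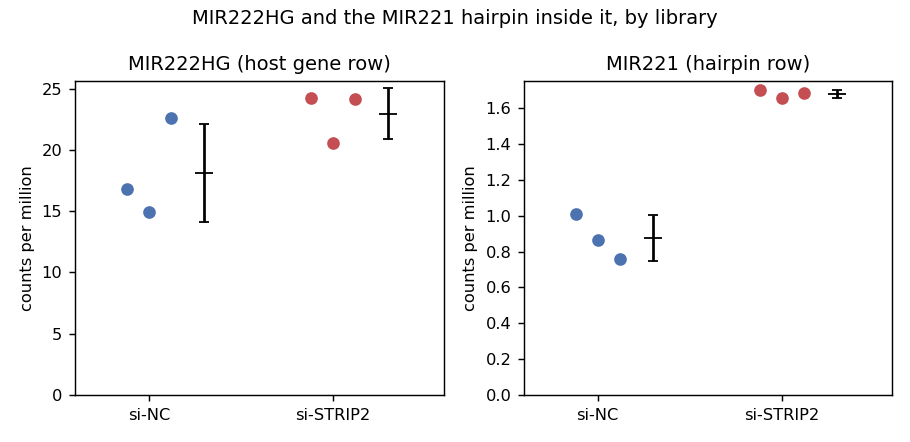
CPM (counts scaled to the library total, vertical axes, from 0) of the MIR222HG row and of the MIR221 hairpin row inside it, in 3 si-NC (blue) and 3 si-STRIP2 (red) libraries, with the mean and SD in black. The host groups overlap, from 14.9 to 22.6 in si-NC and 20.5 to 24.2 in si-STRIP2, while the hairpin groups do not.

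Hairpin rows elsewhere were nearly empty. Of the 41 microRNA genes on the same strand inside tested hosts, 17 lay in a host exon by GENCODE 29, 21 in an intron, and 3 in MIRLET7A1HG lay outside its GENCODE 29 gene model. The 17 exonic hairpins, among them miR-22, miR-34a and the 6 of MIR17HG, had 0 counts in all libraries. Of the 21 intronic hairpins, 10 had at least 1 count, with 208 counts in total, of which MIR221 held 140. How the counting treated reads shared by a hairpin and its host was not tested.

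MIR34AHG (ENSG00000228526, chromosome 1, 9148011 to 9198906, minus strand) is a p53 target gene and the source of miR-34a. Its FPKM was 0.32, 0.18 and 0.41 in si-NC and 0.49, 0.41 and 0.37 in si-STRIP2. The groups overlapped, and si-NC replicate 2 was the lowest library. The log2 fold change was 0.48 ± 0.21 (SE), just past the threshold (edgeR adjusted p = 0.0469). Without si-NC replicate 2 it was 0.23 and not called (edgeR adjusted p = 0.353), and without si-NC replicate 3 it was 0.74. The call was also lost under DESeq2, under limma, with a minimum mean count of 50 (edgeR adjusted p = 0.0589) and without si-NC replicate 1, si-STRIP2 replicate 1 or si-STRIP2 replicate 2.

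The other hosts that rose are less studied. MIR1915HG (ENSG00000204682, chromosome 10) had an FPKM of 0.42, 0.54 and 0.33 in si-NC and 0.59, 0.62 and 0.64 in si-STRIP2, without overlap. Its log2 fold change was 0.52 ± 0.22 (SE, edgeR adjusted p = 0.0423), and the call was lost under DESeq2 (DESeq2 adjusted p = 0.130), without a filter on low counts and on leaving out any 1 library other than si-NC replicate 2. MIR600HG (ENSG00000236901, chromosome 9) went from 0.52, 0.32 and 0.46 to 0.76, 0.59 and 0.72 FPKM, with a log2 fold change of 0.66 ± 0.18 (SE, edgeR adjusted p = 0.00285). The groups did not overlap, but the value is uncertain, since STRBP overlaps it on the same strand with 2364% as many counts and a log2 fold change of -0.32.

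MIR3936HG (ENSG00000233006, chromosome 5) had an FPKM of 0.18, 0.21 and 0.20 in si-NC and 0.28, 0.42 and 0.37 in si-STRIP2, again without overlap. The log2 fold change was 0.88 ± 0.27 (SE, edgeR adjusted p = 0.00669). SLC22A5, on the opposite strand, held 1655% as many counts and had a log2 fold change of 0.18. The value of MIR3936HG is therefore uncertain where strand was not used. MIR210HG, MIR600HG and MIR3936HG were the rising hosts that were called in each alternative in which they were tested.

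None of the let-7 hosts was called. MIR100HG (ENSG00000255248, chromosome 11, 122028325 to 122556721, minus strand) had an FPKM of 4.08, 4.28 and 4.41 in si-NC and 4.45, 4.12 and 4.38 in si-STRIP2. The groups overlapped almost entirely. Its log2 fold change was 0.019 ± 0.043 (SE), the smallest error of any host (edgeR adjusted p = 0.731). MIRLET7BHG stood at 0.26, 0.29 and 0.31 FPKM in si-NC and 0.27, 0.28 and 0.32 in si-STRIP2, with a log2 fold change of 0.038 ± 0.22 (SE).

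MIRLET7A1HG varied more between libraries, from 0.41 to 0.85 FPKM in si-NC and from 0.53 to 0.81 in si-STRIP2. Its log2 fold change was 0.11 ± 0.21 (SE), and MIRLET7IHG had 0.37 ± 0.26 (SE). The SE of each of these 3 hosts, 0.21 to 0.26, is above that of MIR17HG, so a change of the size called there could have been missed at this depth. MIRLET7BHG is also uncertain in itself, because PRR34-AS1 overlaps it on the same strand with 113% as many counts.

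The remaining 9 tested hosts were not called either. MIR31HG had the lowest log2 fold change of them, -0.72 ± 0.37 (SE) at a mean count of 13.7 (edgeR adjusted p = 0.0995), and was called lower without si-NC replicate 1 or without si-STRIP2 replicate 3. MIR4713HG (-0.43), MIR23AHG (-0.30), MIR762HG (-0.28) and MIR4453HG (-0.23) had values below 0 on the log2 scale. MIR378D2HG (0.46), MIR193BHG (0.38), MIR30DHG (0.29) and MIR924HG (0.23) had values above 0. The groups of MIR924HG and MIR4453HG did not overlap although neither passed the test, and MIR30DHG was called higher without si-NC replicate 3. MIR378D2HG and MIR762HG are uncertain, since PDP1 and BCL7C on their opposite strands held 271826% and 950% as many counts. The same holds in smaller measure for MIR4713HG, MIR23AHG and MIR31HG, where overlapping genes held 157%, 77.7% and 52.4% as many.

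**Figure D4:**
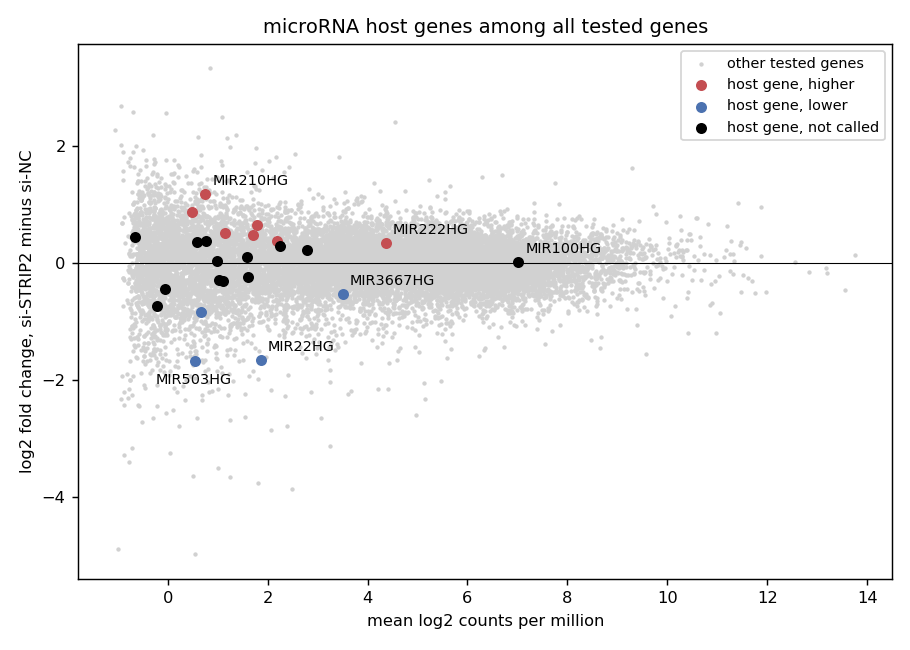
Log2 fold change (si-STRIP2 minus si-NC) against mean log2 CPM for all 15687 tested genes (grey), with the 24 microRNA host genes as larger points in red (7 higher), blue (4 lower) and black (13 not called). Most hosts lie at the low end of the level axis, where fold changes scatter most, and MIR100HG lies farthest to the right at a fold change near 0.

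Of the 21 hosts with counts that were too low to test, MIR155HG and MIR133A1HG are named after their values were seen. MIR155HG, the host of miR-155, had 1, 2 and 1 counts in si-NC and 6, 3 and 7 in si-STRIP2. MIR133A1HG had 0, 1 and 0 against 4, 3 and 2, beside 248980% as many counts from MIB1 on the opposite strand. In an edgeR fit without a filter on low counts their adjusted p-values were 0.0686 and 0.10, and none of the 21 was called. MIR302CHG, the host of the pluripotency-linked miR-302 cluster, had the highest mean count of the untested hosts, 8.67, with 4 to 13 counts per library and overlapping groups. LARP7, on its opposite strand, held 14002% as many counts.

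The symbol rule leaves out 10 host genes with a hyphen. Only MIR9-1HG and MIR4435-2HG of these were tested, with log2 fold changes of 0.078 and -0.12, and neither was called.

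Promoter sequences were searched for 3 motifs. RefSeq (GRCh38.p14) had a promoter, 250 bases before to 50 after the start, for 20 of the 24 tested hosts. Both strands were searched for the AP-1 motif TGANTCA, the E-box CACGTG and the core of the hypoxia response element, ACGTG, which also lies within the E-box. The first was found in 0 of 20 hosts and 7.76% of all 27305 promoters, the second in 0 of 20 and 7.43%. ACGTG was found in 7 of 20 hosts and in 21.6% of all promoters. Of the 7 hosts with it, 3 were called higher, 2 lower and 2 not called. Among the 20 hosts with a promoter, 7 were called higher and 3 lower. Matches at the host that rose most and the pair that fell most are shown 5′ to 3′ on the strand of the match, with the motif in capitals.
MIR210HG: ccgggcagACGTGcagaaaag
MIR22HG: gctgggcaACGTGgccccgcc
MIR503HG: ggttcaaaACGTGaggcgctg
The promoters lie at chr11:568408-568707, chr17:1716161-1716460 and chrX:134546581-134546880, all of genes on the minus strand, and the matches lie 170, 112 and 30 bases before the RefSeq start. The match of MIR22HG is on the strand opposite to the gene. Such a match describes letters in a window and not a bound site.

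Many microRNAs lie in introns of protein-coding genes, and a list of 36 such hosts showed changes of both signs. All 36 held a microRNA gene on the same strand inside their span. Of 35 tested, 17 were called, 8 higher and 9 lower, and the median log2 fold change was -0.012. That is 48.6% called, beside 54.8% of all tested genes. The 2 shares are not matched for depth, since 1 of the 35 had a mean count under 100, where 31.8% of tested genes were called. In 2 of the 35 the called change reached 1.5-fold, beside 14.5% of all tested genes. PANK1, a pantothenate kinase gene with miR-107 in an intron, rose from 2.12 ± 0.320 to 4.06 ± 0.230 FPKM (SD, n = 3), a log2 difference of 0.93 (edgeR adjusted p = 1.61e-09). LPP, a focal adhesion gene that hosts miR-28, fell from 4.25 ± 0.579 to 2.79 ± 0.227 FPKM, with a log2 fold change of -0.60 (edgeR adjusted p = 2.09e-10). MCM7, named after its values were seen, hosts miR-25, miR-93 and miR-106b, a cluster related to that of MIR17HG, and had a log2 fold change of 0.24 (edgeR adjusted p = 1.06e-05).

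Genes that process host transcripts or act with mature microRNAs were also described as a list. Of 24 such genes, 23 were tested and 21 were called, 17 higher and 4 lower, and their median log2 fold change was 0.17. Of all tested genes, 54.8% were called, 27.8% higher and 27.0% lower, and the difference between the list and other genes was not tested. These shares are not matched for depth, since 0 of the 23 had a mean count under 100, where 31.8% of tested genes were called. SRRT, which links the cap-binding complex to primary microRNA processing, was the only called gene of the list whose change reached 1.5-fold. It rose from 19.07 ± 0.809 to 33.4 ± 1.26 FPKM (SD, n = 3), a log2 fold change of 0.80 (edgeR adjusted p = 4.88e-17). DROSHA and DGCR8, named after their values were seen as the enzyme and its partner that act on host transcripts, had log2 fold changes of 0.57 and 0.15.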

How the data were processed

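Libraries of poly(A) RNA were made with a directional kit, per the labels' protocols. Per the submitters' processing notes, bcl2fastq 2.20.0.422, cutadapt 1.9.1, HISAT2 2.2.1 and HTSeq 0.6.1 were used with GRCh38.p13; the annotation release and strand setting are not given in the sources used here. The authors deposited raw counts per gene, which were whole numbers. Deposited FPKM values differed by at most 0.005 from counts scaled by exonic size and column total.

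Genes were kept by filterByExpr (minimum count 10), leaving 15687 genes with 99.84% of counts. Libraries were scaled by TMM (factors 0.990 to 1.01). The edgeR 4.0.16 quasi-likelihood F test (2-sided, R 4.3.3, group as only term) was adjusted by Benjamini-Hochberg over all genes tested; a gene was called at an adjusted p under 0.05. The standard error (SE) of a log2 fold change was taken from its size and the F statistic. DESeq2 1.42.0 and limma 3.58.1 were alternatives. Scripts were tested on simulated data.

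Every tested host is named, called ones with the values of each library; from other lists, called genes of at least 1.5-fold. Members and lists were chosen with earlier results of these data known. Exons came from GENCODE 29 on GRCh38, which held 73 of the 74 members by identifier, 34 with the same start and end. Counts limit precision, and p-values cover counting and library spread only.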

Additional observations from a re-analysis of the deposited data

How the results depend on the processing

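Of the 11 called hosts, 7 were called in every alternative in which they were tested (MIR22HG, MIR503HG, MIR3667HG, MIR200CHG, MIR210HG, MIR600HG and MIR3936HG), and the calls of MIR17HG, MIR222HG, MIR1915HG and MIR34AHG were lost in 3 to 8. DESeq2 called 7 hosts (3 higher), beside 46.1% of all tested genes. A minimum mean count of 50, which left 11 hosts to test, called 5 (3 higher, 2 lower), beside 62.6%. With 1 library left out, calls ranged from 8 to 11, those higher from 4 (without si-STRIP2 replicate 1) to 7 and those lower from 4 to 5. The share of all tested genes called was then 47.9% to 53%. The protein-coding hosts called ranged from 15 to 20 and the processing genes from 17 to 21. The median log2 fold change, 0.17, then ranged from 0.10 to 0.28; it was 0.11 with a minimum mean count of 10, 0.21 with one of 50 and 0.045 by limma on log2(FPKM + 1), whose pseudocount shrinks low genes. No called host changed direction. With 1 library left out, uncalled hosts that did were MIRLET7BHG (up to 0.10 otherwise) without si-NC replicate 1 (-0.017) or si-STRIP2 replicate 3 (-0.043), MIR100HG (up to 0.052) without si-NC replicate 1 (-0.0076), and MIRLET7A1HG (up to 0.38) without si-NC replicate 2 (-0.11) or si-STRIP2 replicate 1 (-0.063). The cause was not tested. For a check of pairing, the mean of its group was subtracted from each gene's log2 CPM, and the remaining deviations were correlated between libraries. These correlations were -0.086, -0.013 and -0.072 between same-numbered libraries of the 2 groups, beside -0.040 to 0.112 between differently numbered ones. Such deviations cancel within a group, which by itself holds the correlations near 0 as a set. Values this near 0 gave no sign of pairing but cannot show whether same-numbered libraries were set up together. With a replicate block 11 hosts were called, the same genes, with a median of 0.18, beside 52.9% of all tested genes called.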
